A study of Mus musculus with 7 samples.

Results

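Genes of the heat-shock and unfolded protein responses were examined in LT-HSCs, the long-term haematopoietic stem cells from which all blood lineages can be rebuilt. The set was chosen by gene symbol: 34 of the 54347 genes in the expression table carried 1 of the 34 listed symbols. It holds 12 cytosolic and nuclear heat-shock genes, 3 mitochondrial chaperones, 11 folding factors of the endoplasmic reticulum (ER), and 8 sensors, transcription factors and degradation factors of the unfolded protein response (UPR). The cells came from female Emcn-/- mice (KO, 3 libraries: ko_306, ko_314, ko_320) and from their Emcn+/+ littermates (WT, 4 libraries: wt_284, wt_290, wt_310, wt_312). All 7 mice carried the strain label C57BL/6N-EMCN em1(IMPC)Wtsi /WtsiH, and the labels give no age, treatment, litter or sort day. Emcn encodes endomucin, a cell-surface sialomucin, and the sources used here do not say which exons the allele lacks. Each library held RNA of 3000 to 5000 cells of 1 mouse, per the design text. The marrow was depleted of lineage-positive cells before the sort, and the library kit keeps strand and suits low input.

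Heat-shock proteins are chaperones that bind unfolded proteins and help them reach their shape. In the cytosol the transcription factor HSF1 switches on inducible members when unfolded protein builds up. The ER has its own chaperones, and 3 sensors of its membrane, IRE1 (gene Ern1), PERK (gene Eif2ak3) and ATF6, report unfolded protein to the nucleus and to the translation machinery. Mouse haematopoietic stem cells are known for low protein synthesis, and in human ones strong ER stress is known to lead through PERK to cell death.

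Library totals ran from 6444134 to 11101774 counts. Emcn had 1, 0 and 0 counts in the KO libraries ko_306, ko_314 and ko_320, against 130, 327, 223 and 216 counts in the WT libraries wt_284, wt_290, wt_310 and wt_312. All 8 stem cell markers examined had counts in every library. The library wt_284 stood apart from the others. The summed level of 15 neutrophil and monocyte markers, in CPM (counts scaled to library size with TMM factors), was 217 to 610 in KO, 247 to 1206 in the other WT libraries and 12520 in wt_284. None of the 15 had 0 counts in wt_284, and the same held for ko_306, wt_290 and wt_310. In ko_314 2 were at 0 (Ctsg and Fcgr3), in ko_320 2 (Ly6c2 and Ms4a3) and in wt_312 1 (Csf1r). The sum of 16 immediate-early genes, which respond to stimulation and handling of cells, was 671 to 714 CPM in KO, 692 to 821 CPM in the remaining WT libraries and 2065 CPM in wt_284. Among these, Atf3 was at 0 in ko_314 and wt_312, and Egr2 in ko_314, ko_320, wt_310 and wt_312. The sum of 9 erythroid markers was 618 to 794 CPM in KO, 571 to 1255 CPM in the remaining WT libraries and 3918 CPM in wt_284. The stem cell marker sum was 1674 to 1947 CPM in KO, 1720 to 1875 CPM in the remaining WT libraries and 1220 CPM in wt_284. In bulk RNA, fewer cells of a type and less RNA per cell cannot be told apart, and the part of these markers in the values below was not tested. Values for the 33 tested genes that move most without wt_284 are given with and without it.

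No chaperone or UPR gene passed the test between KO and WT. Of 33 tested, 0 were called at an adjusted p under 0.05 in edgeR's quasi-likelihood test, and the smallest adjusted p among them was 0.992. Across all 15372 tested genes 0.00651% were called, which is a single gene, Emcn. DESeq2 and limma-voom also called 0 of the set. Log2 fold changes (KO over WT) were positive for 11 of the 33 and negative for 22, with a median of -0.09, against 7317 positive and 8055 negative and a median of -0.02 over all tested genes. At an unadjusted p under 0.05 there were 3 of the 33, Eif2ak3, Edem1 and Xbp1, where 3.27% of all tested genes reached that level. Without wt_284 there was 1, Xbp1, where 2.21% of all tested genes did, and 18 of the 33 log2 fold changes were then positive and 15 negative, with a median of 0.01. Intervals were narrow for most: for 26 of 33 the 95% interval lay within 2-fold in either direction, as it did for 49.6% of all tested genes and 76.0% of those above 10 CPM. Hspb1, the small heat-shock protein HSP27, had a single count in wt_290 and 0 in the other 6 libraries, so it was not tested.

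**Figure D1:**
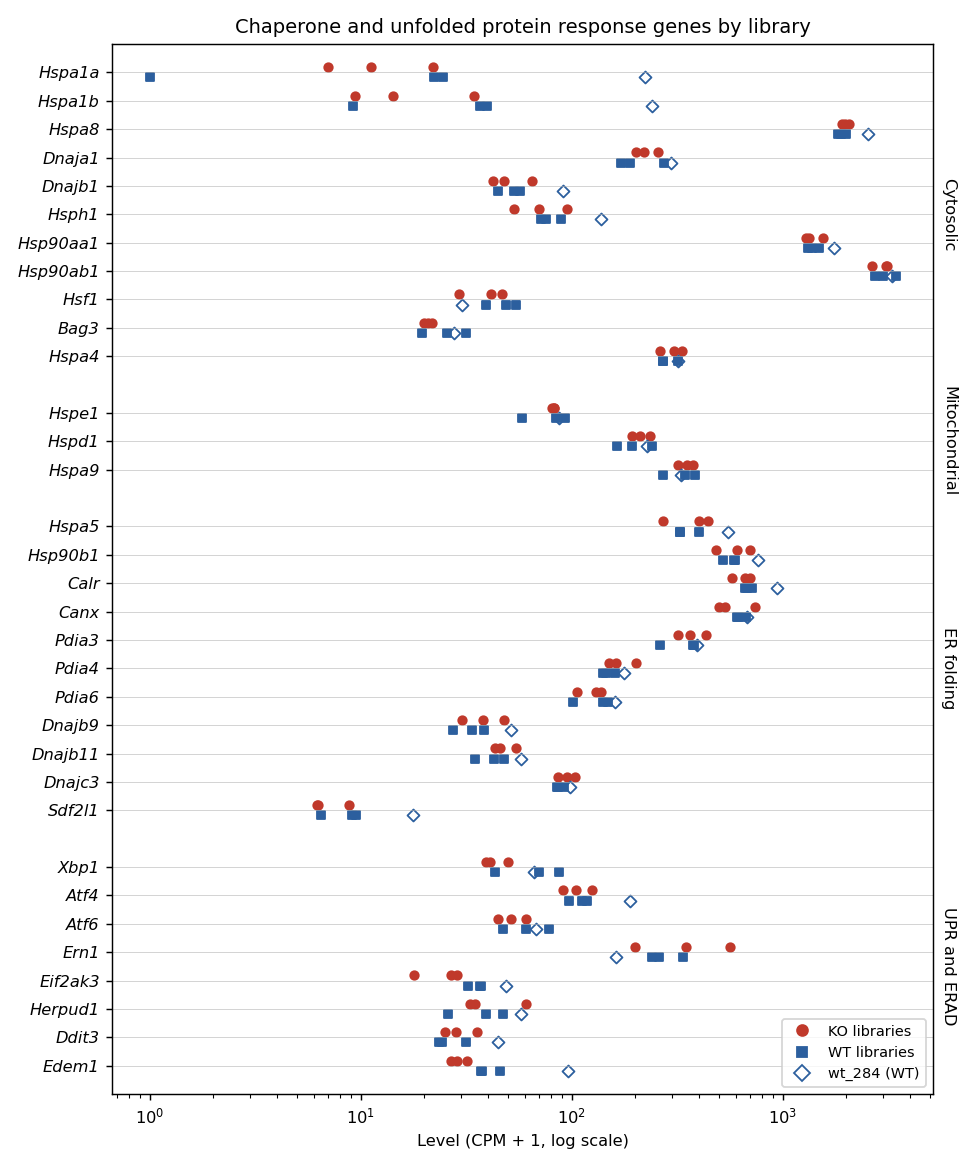
Level of each of the 33 tested genes in each library, as CPM + 1 on a log axis; red circles are the 3 KO libraries, blue squares 3 WT libraries and open diamonds the WT library wt_284. Hsp90ab1, Hspa8 and Hsp90aa1 lie farthest right, and the open diamond is the highest point for 18 of the 33 genes.

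In both genotypes 4 abundant chaperones held most of the counts of the set. Hsp90ab1, the constitutive cytosolic HSP90, had 3121, 2654 and 3098 CPM in KO and 3315, 3433, 2743 and 2992 CPM in WT. Hspa8, the constitutive HSP70 known as HSC70, averaged 1977 ± 73.4 CPM (SD, n = 3) in KO and 2061 ± 320 CPM (SD, n = 4) in WT. Hsp90aa1, the stress-inducible cytosolic HSP90, averaged 1392 ± 142 CPM in KO and 1481 ± 193 CPM in WT. Together with the ER lectin chaperone Calr (calreticulin) these genes made up 58.6% to 63.9% of all counts of the set in KO and 60.1% to 62.8% in WT. The whole set took 1.15% ± 0.0219 of the library in KO and 1.19% ± 0.0832 in WT.

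Divided by merged exon length, which allows levels of different genes to be compared, Hsp90ab1 stood highest at 986 CPM per kb in KO and 1041 CPM per kb in WT. Hspa8 followed at 460 and Hsp90aa1 at 354 CPM per kb in KO, against 479 for Hspa8 and 377 for Hsp90aa1 in WT. Next came Calr with 224 CPM per kb in KO and 259 in WT, followed in KO by genes whose neighbours differed by less than their SD, Hsp90b1 (148 ± 27.2), Canx (125 ± 27.4) and Pdia3 (118 ± 18.4 CPM per kb). The lowest tested genes per kb in KO were Eif2ak3 at 3.88, Hspa1a at 4.18 and Edem1 at 4.36 CPM per kb. In WT they were Hsf1 at 5.94, Eif2ak3 at 6.26 and Atf6 at 6.77 CPM per kb, but without wt_284 Hspa1a at 5.02, Eif2ak3 at 5.72 and Edem1 at 6.09. Hsf1 was among the lowest only by merged exon length, since with the longest coding transcript it stood at 18.2 CPM per kb in KO and 20.0 in WT, against 8.37 for Eif2ak3 in WT. With that length Hspa8 stood at 826 CPM per kb in KO and 861 in WT, still second to Hsp90ab1 (1174 in KO, 1238 in WT).

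The inducible HSP70 genes Hspa1a and Hspa1b varied most between mice. They are stress-induced, are nearly identical copies, and lie next to each other on the minus strand of chromosome 17 (GRCm38, Hspa1a from 34969190 to 34972156 and Hspa1b from 34956436 to 34959238). Their upstream stretches, taken from RefSeq (GRCm38.p6, chr17:34972157-34972276 and chr17:34959239-34959358, both minus strand), are shown because they make plain how alike the pair is. Capitals mark the 2-unit heat shock element, the binding motif of HSF1.
Hspa1a: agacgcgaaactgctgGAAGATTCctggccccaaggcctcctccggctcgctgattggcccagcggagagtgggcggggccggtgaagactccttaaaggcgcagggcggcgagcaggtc
Hspa1b: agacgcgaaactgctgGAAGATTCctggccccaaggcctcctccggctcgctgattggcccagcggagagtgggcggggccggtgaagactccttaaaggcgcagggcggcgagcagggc
The stretches are the same at 119 of 120 bases, and at 247 of 250 bases before the gene start. The transcripts also overlap, since 63.8% of the 31-base words of Hspa1a and 67.6% of those of Hspa1b occur in the other gene. How the estimated counts divide between the pair is therefore uncertain, and the sum of both is the firmer value.

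Hspa1b had 13.2, 33.3 and 8.41 CPM in KO, against 238, 35.8, 38.5 and 8.22 CPM in WT. Hspa1a had 10.2, 21.0 and 5.99 CPM in KO, against 221, 21.2, 23.5 and 0 CPM in WT. The WT libraries are given in the order wt_284, wt_290, wt_310 and wt_312, here and in what follows. For both genes wt_284 stood far above the rest, wt_290 and wt_310 lay just above the KO libraries, and wt_312 lay below them. Summed, the pair held 23.3, 54.3 and 14.4 CPM in KO and 459, 56.9, 62.1 and 8.22 CPM in WT. As a share of Hspa8 counts this was 1.22%, 2.64% and 0.731% in KO, and 18.2%, 3.01%, 3.11% and 0.450% in WT. The log2 fold change of the summed pair was -2.26 ± 1.47 (SE), with a 95% interval from -5.99 to 1.46, and without wt_284 it was -0.47 ± 0.93 (-2.94 to 1.99). Taken singly, Hspa1a had -2.43 ± 1.86 and Hspa1b -2.14 ± 1.31 (SE). Without wt_284 they were at -0.27 (95% interval -4.25 to 3.71) and -0.60 (-2.30 to 1.11). With mice numbered above 300, which leaves out wt_284 and wt_290, Hspa1a turned to 0.08.

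**Figure D2:**
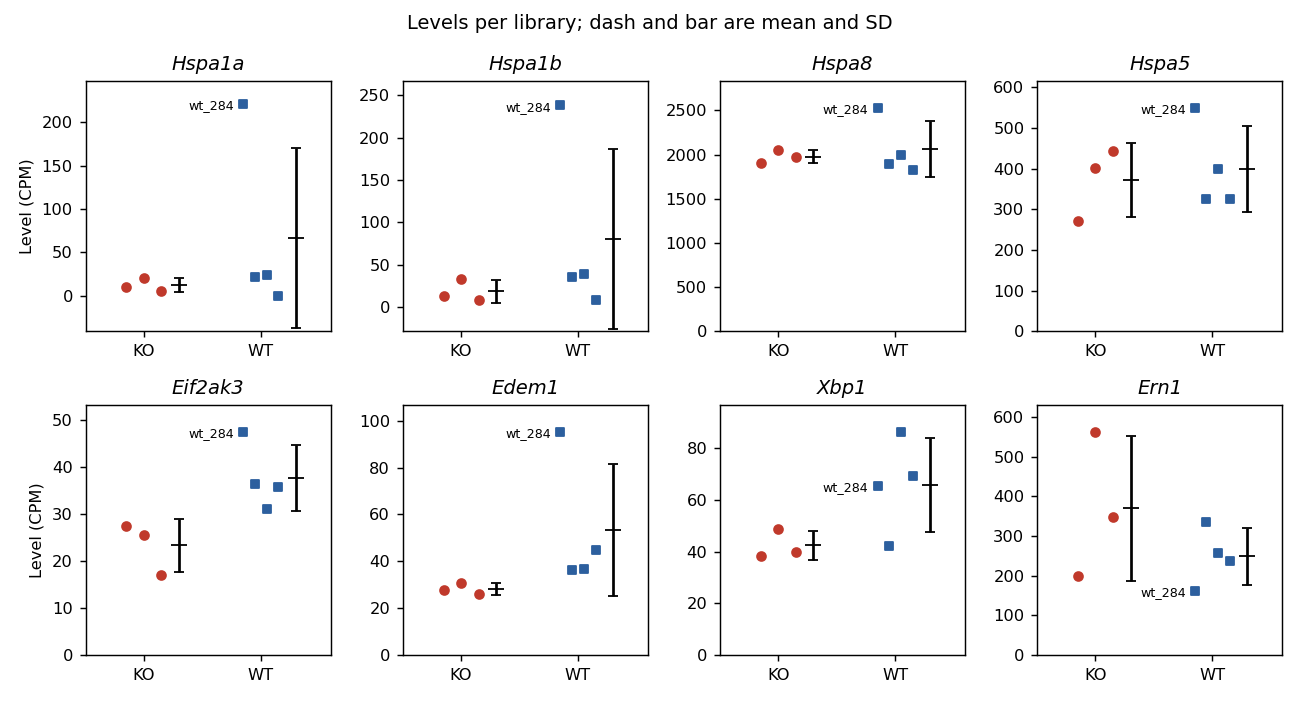
Level in CPM of 8 genes in each library, KO (red circles, n = 3) left of WT (blue squares, n = 4), with mean and SD beside the points; the wt_284 point is named. In Eif2ak3 and Edem1 all KO points lie below all WT points, while in Hspa1a, Hspa1b, Hspa8 and Hspa5 wt_284 is the highest point.

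The remaining cytosolic genes overlapped between genotypes. Of the 11 tested in this compartment, 1 had a positive and 10 a negative log2 fold change, with a median of -0.14 that was -0.04 without wt_284, where 5 were positive and 6 negative. Dnajb1, the HSP40 partner that hands unfolded proteins to HSP70, had 41.6, 46.5 and 64.1 CPM in KO and 90.3, 43.6, 55.9 and 52.1 CPM in WT. Hsph1, the HSP110 exchange factor of HSP70, had 93.7, 68.9 and 52.2 CPM in KO and 137, 74.3, 87.9 and 70.4 CPM in WT. In both genes wt_284 was the highest library and the others overlapped. Their log2 fold changes were -0.25 ± 0.26 for Dnajb1 and -0.37 ± 0.26 (SE) for Hsph1, or 0.01 and -0.11 without wt_284. Bag3, a co-chaperone of HSP70 that acts in selective autophagy, was at 19.8 ± 0.910 CPM in KO and 25.1 ± 5.09 CPM in WT, with a log2 fold change of -0.34 (95% interval -0.90 to 0.22). Hsf1, the regulator of this group, had 28.3 to 45.9 CPM in KO, 38.1 to 53.6 CPM in the remaining WT libraries and 29.3 CPM in wt_284, its lowest WT library, with a log2 fold change of -0.14, or -0.27 without wt_284. Hspa4, another HSP110-type exchange factor, had 0.03 (-0.28 to 0.33) and Dnaja1, a farnesylated HSP40, had -0.03 (-0.47 to 0.40). Of the abundant genes, Hspa8 had -0.06 (-0.36 to 0.24), Hsp90aa1 had -0.09 (-0.39 to 0.21) and Hsp90ab1 had -0.08 (-0.35 to 0.20). With wt_284 left out, Hspa4 stood at 0.07. The other log2 fold changes were then 0.11 for Dnaja1, 0.06 for Hspa8, 0.003 for Hsp90aa1 and -0.04 for Hsp90ab1. The split between the HSP90 genes was steady, with Hsp90aa1 at 30.0% to 33.4% of their joint counts in KO and 30.3% to 34.5% in WT.

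The mitochondrial chaperones had log2 fold changes between 0.02 and 0.07, all 3 positive. Hspd1 encodes the chaperonin HSP60, Hspe1 its lid HSP10 and Hspa9 the matrix HSP70 mortalin. Hspd1 had 235, 191 and 210 CPM in KO and 227, 238, 193 and 163 CPM in WT. Hspe1 had 79.8, 81.9 and 81.4 CPM in KO and 86.4, 83.2, 92.5 and 56.9 CPM in WT. Here wt_312, not wt_284, stood off, as the lowest library for each of the 3 genes. Hspa9 averaged 348 ± 27.9 CPM (SD, n = 3) in KO and 332 ± 46.6 CPM (SD, n = 4) in WT. The log2 fold changes were 0.05 for Hspd1 (95% interval -0.30 to 0.40), 0.02 for Hspe1 (-0.38 to 0.42) and 0.07 for Hspa9 (-0.25 to 0.39). The ratio of Hspe1 to Hspd1, the lid over its barrel, was 0.385 ± 0.0442 in KO and 0.389 ± 0.0619 in WT in CPM. Hspd1 and Hspe1 lie head to head on chromosome 1 with overlapping annotated spans. A promoter window of each holds 2 overlapping 3-unit heat shock elements (GAA, 2 bases, TTC, 2 bases, GAA, on either strand). The other window of Hspd1 holds none. The stretch is shown in the direction of Hspe1, with both elements in capitals, which run from 89 to 72 bases before its RefSeq start (GRCm38.p6, chr1:55088053-55088082, plus strand).
Hspe1: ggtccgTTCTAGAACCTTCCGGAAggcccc
Of 28 genes of the set whose RefSeq promoter was searched, these were the only 2 with the 3-unit motif in the 250 bases before the start. Of all 27025 genes with a promoter 0.514% had it. The matching windows of the 2 genes overlap and hold the same stretch, so the matches are not separate sites. Hspa8, Hsp90aa1, Hsp90ab1, Hsf1, Hspa9 and Atf6 had no window here and were not searched. The 2-unit motif, which is part of the 3-unit one, was in a window of 6 of the 28, among them Hspa1a, Hspa1b, Dnaja1 and Hspb1. Of all genes with a promoter 7.73% had it.

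**Figure D3:**
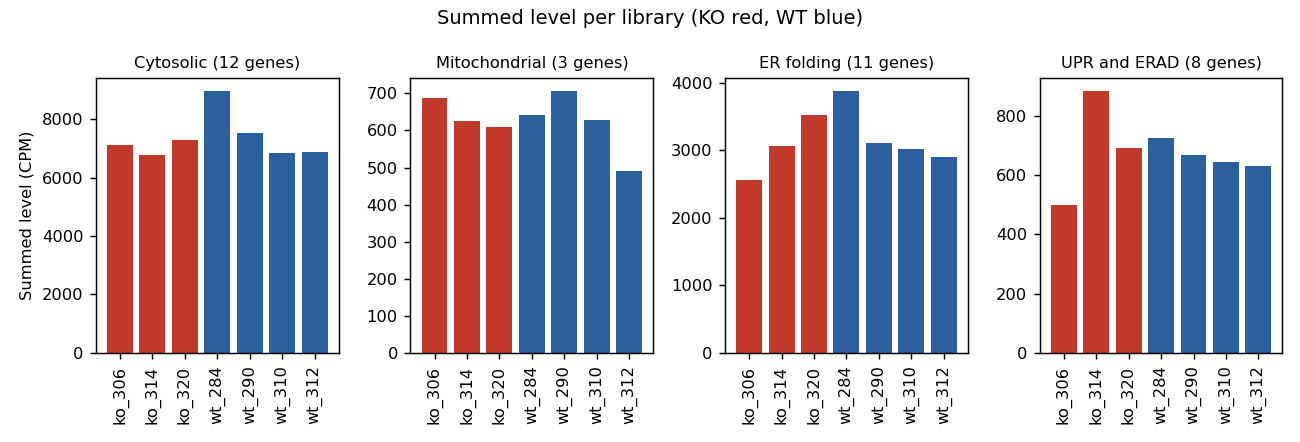
Summed level in CPM of the genes of each compartment in each library, the 3 KO libraries (red) left of the 4 WT libraries (blue), with axes from 0. The cytosolic and ER sums are highest in wt_284, at 8947 and 3872 CPM, the mitochondrial sum is lowest in wt_312, at 491 CPM, and the UPR and ERAD sum is highest in ko_314, at 883 CPM.

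The ER folding factors showed overlapping values too. Their summed level was 3049 ± 487 CPM in KO and 3227 ± 438 CPM in WT, where the cytosolic group had 7064 ± 255 CPM in KO and 7554 ± 981 CPM in WT (SD, n = 3 and 4). The mitochondrial group had 641 ± 41.4 CPM in KO and 617 ± 90.1 CPM in WT. Of the 11 genes 5 had positive and 6 negative log2 fold changes with a median of -0.05, or 0.09 without wt_284. Hspa5, the ER HSP70 known as BiP that holds the sensors inactive, had 270, 401 and 444 CPM in KO and 550, 326, 398 and 325 CPM in WT. The lowest library was ko_306 and the highest was wt_284, while the other 2 KO libraries lay above the other 3 WT libraries. Its log2 fold change was -0.10 ± 0.22 (SE), or 0.09 ± 0.18 without wt_284. Hsp90b1, the ER HSP90 known as GRP94, had 482, 605 and 701 CPM in KO and 767, 592, 521 and 585 CPM in WT, and again ko_306 was lowest, wt_284 highest and the other 2 KO libraries above the other 3 WT libraries. Its log2 fold change was -0.05, or 0.08 without wt_284. Sdf2l1, an ER factor that works with BiP, had the lowest level of the compartment, 5.25, 5.22 and 7.77 CPM in KO and 16.7, 8.50, 5.50 and 8.09 CPM in WT. Its log2 fold change of -0.68 ± 0.47 (SE) was -0.28 ± 0.51 without wt_284.

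The lectin chaperones Calr and Canx, which hold glycoproteins during folding, had log2 fold changes of -0.21 (95% interval -0.54 to 0.12) and -0.12 (-0.45 to 0.20), or -0.08 for Calr and -0.10 for Canx without wt_284. The disulfide isomerases Pdia3, Pdia4 and Pdia6 had 0.07, 0.14 and -0.14, each with an interval within 2-fold, or 0.13, 0.21 and -0.06 without wt_284. Pdia3 had 316 to 431 CPM in KO, 374 to 390 CPM in wt_284, wt_290 and wt_310, and 260 CPM in wt_312. The HSP40 co-chaperones of BiP, Dnajb9, Dnajb11 and Dnajc3, had 0.03, 0.07 and 0.08, or 0.23, 0.20 and 0.12 without wt_284. Dnajc3 was the steadiest gene of the set, with an SD of 0.11 in log2(CPM + 1) over the 7 libraries, while Hspa1a had 2.34. The median of this SD was 0.29 over the 33 genes and 0.30 over all tested genes above 10 CPM.

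ER chaperone genes are known to carry the ER stress element, the motif through which ATF6 and XBP1 act, written as CCAAT, any 9 bases and CCACG. It was found in the promoter windows of 6 of the 11 ER genes and of none of the other 17 genes with a window. Of all 27025 genes with a promoter 0.13% had it on either strand. The sites are printed on the strand of their gene (RefSeq, GRCm38.p6) with the element in capitals, because 6 genes of the compartment share it. They lie at chr2:34772020-34772048 (Hspa5, plus), chr10:86705528-86705556 and chr10:86705633-86705661 (Hsp90b1, minus), chr8:84847070-84847098 (Calr, minus), chr11:50325795-50325823 (Canx, minus), chr14:118937822-118937850 (Dnajc3, plus) and chr12:17266486-17266514 (Pdia6, plus).
Hspa5: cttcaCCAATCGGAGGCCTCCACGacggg
Hsp90b1, nearer site: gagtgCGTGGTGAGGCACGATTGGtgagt
Hsp90b1, farther site: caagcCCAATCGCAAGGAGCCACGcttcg
Calr: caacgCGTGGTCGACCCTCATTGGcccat
Canx: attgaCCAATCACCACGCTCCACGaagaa
Dnajc3: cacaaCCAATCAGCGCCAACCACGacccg
Pdia6: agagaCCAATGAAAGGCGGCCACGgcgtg
In Calr and at the nearer Hsp90b1 site the element runs the other way, so the strand shown begins with CGTGG. The first base of the element lay from 65 bases (Hspa5) to 212 bases (farther Hsp90b1 site) before the start. A match describes the letters only. The log2 fold changes of these 6 genes ran from -0.21 (Calr) to 0.08 (Dnajc3), or without wt_284 from -0.10 (Canx) to 0.12 (Dnajc3).

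The UPR sensors and their effectors held the genes with the smallest p of the set. Eif2ak3 encodes PERK, the sensor kinase that slows translation by phosphorylating eIF2 alpha. It had 27.6, 25.7 and 16.9 CPM in KO and 47.6, 36.4, 31.2 and 35.8 CPM in WT. Every KO library lay below every WT library. The log2 fold change was -0.69 ± 0.25 (SE; 95% interval -1.24 to -0.14), with an adjusted p of 0.992 in edgeR, and it was -0.55 ± 0.26 without wt_284.

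Edem1, which directs misfolded glycoproteins to ER-associated degradation (ERAD), had 27.6, 30.9 and 25.9 CPM in KO and 95.4, 36.4, 36.7 and 45.0 CPM in WT. The KO libraries were again all below the WT ones, and wt_284 was 2.43 times the mean of the other WT libraries. Its log2 fold change was -0.92 ± 0.33 (SE; -1.66 to -0.19) with an adjusted p of 0.992 in edgeR. Without wt_284 it was -0.48 ± 0.23, and the interval then reached 0.004. The adjusted p of Edem1 ran from 0.0522 in edgeR with no filter on low counts to 1.00 over the 12 alternatives. Complete separation of the groups was seen for 2 of 33 genes, Eif2ak3 and Edem1, against 4.86% of all tested genes in either direction and 2.43% with KO below WT. Leaving out a WT library cannot undo such a separation. Without wt_284 no further gene of the set was separated. Over all tested genes 3.60% were then separated with KO below WT and 3.67% with KO above. Edem1 and the neutrophil and monocyte marker sum were both highest in wt_284. Among the other WT libraries wt_312 had the highest Edem1 level and the lowest marker sum, at 247.5 CPM. The summed level of Hspa1a and Hspa1b instead had the same order over the WT libraries as the marker sum. The part of the markers in these values was not tested.

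Xbp1 encodes the transcription factor whose mRNA is spliced by IRE1, and gene counts do not tell the spliced form from the unspliced one. It had 38.2, 48.9 and 40.0 CPM in KO and 65.6, 42.1, 86.5 and 69.4 CPM in WT. Among WT libraries wt_290 lay within the KO range and the other 3 above it. The log2 fold change was -0.64 ± 0.24 (SE; -1.15 to -0.12), with an adjusted p of 0.992 in edgeR, and -0.63 ± 0.24 without wt_284. Over the 12 alternatives its adjusted p ran from 0.376 to 1.00, and that of Eif2ak3 from 0.607 to 1.00.

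Ern1, which encodes the sensor IRE1 alpha itself, had the largest positive log2 fold change of the 33 genes. It had 199, 564 and 348 CPM in KO and 162, 337, 258 and 238 CPM in WT, so that its highest library was ko_314 and its lowest was wt_284. The groups overlapped, and the log2 fold change was 0.57 (95% interval -0.31 to 1.46). It was 0.15 without ko_314 and 0.42 without wt_284. Among the sensors Ern1 was the most abundant per kb of exon, at 45.3 ± 22.4 CPM per kb in KO and 30.4 ± 8.80 in WT. Atf6 had 5.56 ± 0.863 CPM per kb in KO and 6.77 ± 1.38 in WT, and Eif2ak3 had 3.88 ± 0.939 in KO and 6.26 ± 1.16 in WT. Ern1 also had the highest CPM of the compartment in most libraries, and the summed level ran from 501 CPM in ko_306 to 883 CPM in ko_314, with 631 to 725 CPM in WT.

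The other members had wider overlap. Atf4, the transcription factor made when eIF2 alpha is phosphorylated, had 90.3, 104 and 124 CPM in KO and 189, 96.4, 117 and 111 CPM in WT, with a log2 fold change of -0.27 ± 0.22 (SE), or -0.02 without wt_284. Ddit3, which encodes its target CHOP, a factor of ER stress-induced death, had -0.06 ± 0.28 and Herpud1, an ERAD factor of the ER membrane, had 0.01 ± 0.30, or 0.18 and 0.20 without wt_284. Atf6 had -0.29 ± 0.21. The compartment had 2 positive and 6 negative values and a median of -0.28, or -0.14 without wt_284.

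**Figure D4:**
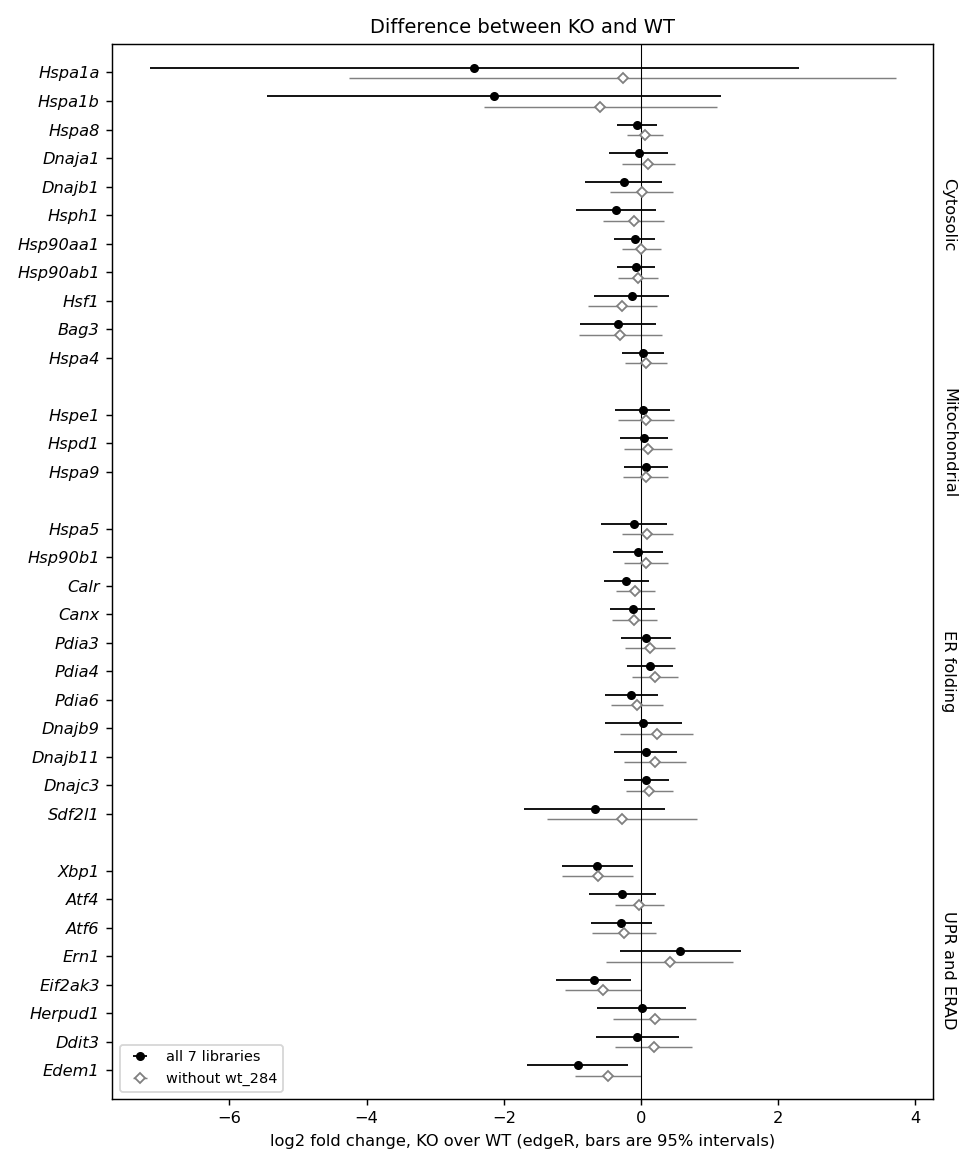
Log2 fold change of KO over WT with 95% interval for the 33 tested genes, from all 7 libraries (black) and without wt_284 (grey diamonds). The intervals of Xbp1, Eif2ak3 and Edem1 from all libraries lie below 0, and those of Hspa1a and Hspa1b are the widest.

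Between libraries, wt_284 was the highest of the 7 for 18 of the 33 genes, or 54.5%, against 23.1% of all tested genes and 26.1% of those above 10 CPM. By compartment this held for 7 of 11 cytosolic, 7 of 11 ER, 4 of 8 UPR and 0 of 3 mitochondrial genes. The median deviation of wt_284 from the mean of the 7 libraries, in log2(CPM + 1), was 0.33 for cytosolic, 0.12 for mitochondrial, 0.32 for ER and 0.53 for UPR genes, against 0.02 over all tested genes. The same library had the highest value of all 15 neutrophil and monocyte markers and of all 15 tested immediate-early genes. The lowest library was wt_312 for 13 of the 33 genes, or 39.4%, against 20.0% of all tested genes. Among KO libraries, ko_306 stood lower for the ER and UPR groups, with median deviations of -0.29 and -0.30. For the ER group ko_320 stood higher, at 0.22.

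Other genes of the same pathways gave 0 calls among 128 tested gene identifiers in 7 lists, in edgeR, DESeq2 and limma-voom. At an unadjusted p under 0.05 there were 6 in edgeR, against the 3.27% of all tested genes given above. The other cytosolic chaperones and co-chaperones had 19 positive and 10 negative log2 fold changes with a median of 0.06. Those with the smallest p were the HSP90 cyclophilin Ppid (0.32 ± 0.15, SE), the HSP40 Dnaja4 (-0.65 ± 0.39) and the HSP70 exchange factor Hspbp1 (0.41 ± 0.26). The TRiC chaperonin, which folds actin and tubulin, and its feeder prefoldin had 11 positive and 3 negative values with a median of 0.10, led by Pfdn1 (0.56 ± 0.25), Cct8 (0.40 ± 0.18) and Cct5 (0.19 ± 0.13). Cct8 had 150, 176 and 177 CPM in KO and 149, 148, 118 and 93.0 CPM in WT. The lowest KO value was just above the highest WT value, as for 2.43% of all tested genes, and Cct8 was the only such gene of 14. In the cytosolic list 2 of 29 genes were separated with KO above WT, Ppid among them, and in the ERAD list 1 of 15. Beyond these only Clpx, given below, was separated in the 7 lists.

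The mitochondrial proteases and remaining chaperones had 8 positive and 5 negative values with a median of 0.07. Clpx, the unfoldase of the ClpXP protease, had 43.2, 46.8 and 50.9 CPM in KO and 25.8, 36.7, 31.2 and 33.7 CPM in WT. All KO libraries were above all WT libraries, as for 2.43% of all tested genes, and the log2 fold change was 0.56 ± 0.20 (SE). Dnajc19 (0.44 ± 0.30) and Grpel1 (0.33 ± 0.27), partners of the matrix HSP70, followed. Other ER folding genes had 14 positive and 13 negative values with a median of 0.02, or 18 and 9 with 0.07 without wt_284. Of these, Ero1a (-0.58 ± 0.30), Ppib (0.34 ± 0.18) and Sil1 (0.50 ± 0.30) had the smallest p. Other ERAD genes had 4 positive and 11 negative values with a median of -0.13, or 7 and 8 with -0.04 without wt_284. Among them Ufd1 was at -0.41 ± 0.29 and Erlec1 at 0.20 ± 0.17 (SE).

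The integrated stress response, the set of genes downstream of eIF2 alpha phosphorylation, had 6 positive and 14 negative values with a median of -0.24, or -0.12 without wt_284. Slc7a11, the cystine transporter, had 2.07, 0.597 and 1.53 CPM in KO and 22.7, 3.97, 7.64 and 1.16 CPM in WT. Atf3, a stress-induced transcription factor, had 0.0861, 0 and 0.255 CPM in KO and 30.1, 1.32, 1.38 and 0 CPM in WT. In both genes wt_284 was the highest library and wt_312 lay among the KO values. Eif2ak1, the haem-regulated eIF2 alpha kinase, had -0.57 ± 0.32 (SE). Partners of the IRE1 and ATF6 arms had 4 positive and 6 negative values with a median of -0.07, or 5 and 5 with -0.002 without wt_284. They were led by the kinase Map3k5 (-0.73 ± 0.30), the ATF6-cutting protease Mbtps2 (0.53 ± 0.28) and the tRNA ligase Rtcb (0.17 ± 0.14), which rejoins the Xbp1 mRNA.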

How the data were processed

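RNA of sorted LT-HSCs was measured by RNA sequencing in 3 KO and 4 WT libraries. Values in the deposited file are estimated counts, written as whole numbers with totals that differ between libraries. The authors used cutadapt and Salmon, per the submitters' processing notes, and their versions, annotation and rounding are not stated there. All sample columns were matched by name. Groups follow the title labels, and p-values measure the spread between mice.

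The test was that of edgeR 4.0.16 under R 4.3.3 (a robust quasi-likelihood fit of KO over WT with TMM factors on 15372 genes that filterByExpr kept, with Benjamini-Hochberg adjustment over all of them). SE is the log2 fold change over the square root of F. The fit was tested on simulated data. Positions and exon lengths came from GENCODE M21 (GRCm38), matched without version for Xbp1 and Pdia6. RefSeq promoters (GRCm38.p6) were used for 28 of the 34 genes. Alternatives used DESeq2 1.42.0 and limma 3.58.1. The genes named are the 34 of the set and the 3 with the smallest p of each pathway list, of which 1 is not reported here. Members and lists were chosen with earlier results of these data known.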

Additional observations from a re-analysis of the deposited data

Results flagged for a closer look

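With 4 WT libraries a single library can be compared with the other 3 by its gap over the range. Of 39 such comparisons 5 passed the critical value of 0.829, which a single comparison passes by chance about 1 in 20 times. All 39 use the same 4 libraries and are not independent, so their count cannot be set against that rate. The KO group of 3 is too small for this. In wt_284 the level of Hspa1a was 221 CPM, where the remaining WT mice had 0 to 23.5 CPM. Hspa1b was at 238 CPM there, where the remaining mice had 8.22 to 38.5 CPM, and the sum of both at 459 CPM, where they had 8.22 to 62.1 CPM. These 3 are not independent, since the genes share sequence. Edem1 was at 95.4 CPM in wt_284, where the remaining mice had 36.4 to 45.0 CPM. Pdia3 was low in wt_312, at 260 CPM against 374 to 390 CPM.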

How the results depend on the processing

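No paired analysis was possible because the labels name no litter or pair, and the mouse numbers differ between all libraries. Litter was therefore not part of the fit. Of the 34 genes 0 were called under any of the 12 alternatives. The number called over all genes was 1 in edgeR, 13 in DESeq2, 81 with no filter on low counts, 0 in limma-voom with quality weights, 7 with mice numbered above 300 and 1 to 3 when each mouse was left out. Summed levels with RLE factors moved by less than 1 SD between libraries. Compartment medians under the 12 alternatives moved by less than 1 SD between WT libraries, a spread that includes wt_284. The ER median of -0.05 still turned to 0.11 with mice numbered above 300, 0.07 without ko_306 and 0.09 without wt_284. The mitochondrial median of 0.05 turned to -0.02 in limma-voom, -0.005 without ko_306 and -0.03 without wt_312. The cytosolic and UPR medians stayed negative. With the longest coding transcript as length, 38 of 68 levels per kb moved by more than 1 SD. For 15 of 33 genes the direction held in all alternatives, among them Hspa1b, Xbp1, Eif2ak3, Edem1 and Ern1.

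The setting with mice numbered above 300 keeps all KO mice and leaves out wt_284 and wt_290, so it overlaps with leaving out wt_284. There the sign turned for Hspa1a (0.079), Hspa8 (0.055), Hsp90aa1 (0.057), Hsp90ab1 (0.050), Hspa5 (0.044), Hsp90b1 (0.11) and Ddit3 (0.10). With limma-voom it turned for Dnaja1 (0.18), Hsf1 (0.00060), Hspe1 (-0.029), Hspd1 (-0.020), Hspa9 (-0.0011), Pdia3 (-0.043), Dnajb9 (-0.051), Dnajb11 (-0.0041), Herpud1 (-0.092) and Ddit3 (0.094). Leaving out each mouse gave Hspa8 -0.11 to 0.057, Dnaja1 -0.17 to 0.11, Dnajb1 -0.43 to 0.0077, Hsp90aa1 -0.16 to 0.0033, Hsp90ab1 -0.14 to 0.010, Hsf1 -0.31 to 0.054, Hspa4 -0.074 to 0.14, Hspe1 -0.092 to 0.10, Hspd1 -0.052 to 0.13, Hspa9 -0.0054 to 0.15, Hspa5 -0.23 to 0.090, Hsp90b1 -0.16 to 0.078, Pdia3 -0.033 to 0.15, Dnajb9 -0.13 to 0.23, Dnajb11 -0.026 to 0.20, Herpud1 -0.31 to 0.20 and Ddit3 -0.19 to 0.18. The cause of these turns was not tested. Summing Hspa1a and Hspa1b, an alternative chosen after seeing the data, gave -2.26, and -0.47 without wt_284; WT levels per kb without wt_284 were also added then. Depth limits genes with few counts, such as Hspb1.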
